A study of Mus musculus with 120 samples.

Results

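The cells compared here were mouse group 2 innate lymphoid cells (ILC2) whose secretion of IL-5 had been followed one cell at a time and which had either secreted the cytokine ("activated") or not ("silent") under the same stimulus. They were taken as the libraries whose source label names IL-5 as the index cytokine and gives the state as activated or silent, after leaving out any library with fewer than 10000 reads assigned to genes. The labels gave 11 activated and 11 silent cells, and 1 silent cell, replicate 7, was dropped by this rule, so that 11 activated and 10 silent cells remained, 21 of the 120 single-cell libraries of the series.

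Both groups came from one source: cells from the pooled mesentery of 20 wildtype C57BL/6 mice, depleted of lineage-positive cells, sorted as c-Kit+ Sca-1+ and kept in culture with IL-2 for months. Both groups were held on a well array coated with capture antibody, with IL-2 at 10 ng/mL and IL-33 at 10 ng/mL, and cells with or without a secretion signal were picked 8 h after the stimulus. A further 5 IL-5 index cells recovered before the stimulus serve as background. The expanded culture limits the cells as a model of ILC2 in tissue, and no label ties a cell to a mouse or a culture. Each state is therefore 1 sample of cells, and the values below describe these cells, with no test between the states and with intervals that cover the counting of reads alone.

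ILC2 are lymphocytes without rearranged antigen receptors that reside in fat, lung and gut. IL-33, an alarmin released by damaged tissue, signals through its receptor ST2 (Il1rl1) and MyD88 to NF-kB, while IL-2 signals through CD25 (Il2ra) to STAT5, and together these signals drive the secretion of type 2 cytokines. IL-5 recruits and maintains eosinophils, IL-13 acts on epithelium and smooth muscle, and IL-9 acts on mast cells and on ILC2 themselves.

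The assay read the 3' ends of mRNAs, and a gene's level is given in CPM, a gene's reads scaled to a total of 1e+06 gene reads, for single cells and for the summed reads of a state. Gene reads per cell ranged from 223789 to 465179 in the activated and from 175331 to 404712 in the silent cells, with medians of 325825 and 314614. Mitochondrially encoded genes took 1.05 to 2.76% of the gene reads of activated cells and 0.357 to 2.76% of those of silent cells. The titles carry 2 dates, with 5 activated and 5 silent cells on the first and 6 activated and 5 silent cells on the second. The cells of a state and date share a sample number in their titles, and 5 or 6 indexed libraries were pooled before tagmentation, so a difference between states and one between library pools cannot be told apart where that number names the pool.

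The ILC2 label was checked against marker genes. Gata3, Rora and Id2, transcription factors of the lineage, had reads in all 21 cells at 506, 592 and 845 CPM in activated and 581, 575 and 906 CPM in silent cells. Il1rl1 had reads in 11 activated and 9 silent cells, at 525 and 766 CPM. Of the ILC2 marker list, Ptgdr2 had no read and Il17rb and Areg had reads in 1 cell each. Among T cell genes, 11 of 18 had no read, Cd3e and Trac included, and a count of 0 allows up to 0.804 CPM in the activated and 0.979 CPM in the silent sum. T cell genes summed to 169.8 to 1061 CPM per activated cell and 51.3 to 2899 CPM per silent cell, with Trbc2, Lat and Zap70 as the 3 measured at 50 CPM over both states. Cd3g had reads in silent replicates 2 and 3, at 2.79 and 318 CPM. Lck, a kinase of T cells, had reads in silent replicates 3, 4, 8 and 10, at 259, 70.3, 81.5 and 77.3 CPM, and in activated replicate 6, at 90.3 CPM. B cell, macrophage, NK or other ILC and stromal markers had reads for 1 of 8, 1 of 11, 1 of 14 and 2 of 11 genes, none of them at 50 CPM over both states. The macrophage marker Adgre1 stood at 454 CPM in activated replicate 8 and had no read in the other cells. The same cell held 2093 CPM of Fcer1a, a subunit of the mast cell and basophil IgE receptor, which had reads in 1 other cell, activated replicate 6, at 454 CPM. The part of these markers in the results below was not tested.

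A pair of cells stood apart from their labels. Silent replicate 6 held Il5 at 6576 CPM and Il13 at 5162 CPM, the highest values of any silent cell. Activated replicate 11 held Il5 at 63.9 CPM and Il13 at 6.09 CPM, the lowest values of any activated cell. Silent replicate 6 also had the fewest gene reads of the 21 cells, 175331, and 12.6% of its reads lay in no annotated gene, the highest share of the silent cells kept. Activated replicate 11 had the highest such share of the activated cells, 8.65%, and the fewest genes with a read after thinning to 100000 reads, 2307. Mitochondrially encoded genes took 2.76% in each, the highest share of its state. The part of library quality in the values of these cells was not tested. Both cells were kept as labelled, and the Il5 ratio is given with and without them.

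The sequence just upstream of 5 genes is shown first, because Il9, Il6 and Pdzk1ip1 had few or no reads in silent cells while Il5 and, above all, Il13 did not divide the states as far. The 250 bases before the RefSeq start (GRCm38.p6), at chr11:53720544-53720793 for Il5 (plus strand), chr11:53634703-53634952 for Il13 (minus), chr13:56482258-56482507 for Il9 (minus), chr5:30012864-30013113 for Il6 (plus) and chr4:115088458-115088707 for Pdzk1ip1 (plus), are written 5' to 3' along the gene, with capitals for matches on either strand to an AP-1 site (TGANTCA), a kappaB site (GGG and TTCC with any 3 bases between), a GATA site (AGATAA, its form AGATAG, or the forms TGATAA and also TGATAG) or an E-box (CACGTG).
Il5: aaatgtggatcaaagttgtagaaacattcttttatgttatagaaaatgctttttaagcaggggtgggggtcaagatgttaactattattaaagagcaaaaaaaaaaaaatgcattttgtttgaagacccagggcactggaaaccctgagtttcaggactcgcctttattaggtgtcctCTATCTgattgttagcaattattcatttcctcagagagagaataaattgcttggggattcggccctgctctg
Il13: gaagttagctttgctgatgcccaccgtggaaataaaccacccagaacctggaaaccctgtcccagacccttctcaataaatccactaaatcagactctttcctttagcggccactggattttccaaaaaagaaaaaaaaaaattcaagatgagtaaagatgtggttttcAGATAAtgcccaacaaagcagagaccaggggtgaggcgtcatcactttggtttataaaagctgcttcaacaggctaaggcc
Il9: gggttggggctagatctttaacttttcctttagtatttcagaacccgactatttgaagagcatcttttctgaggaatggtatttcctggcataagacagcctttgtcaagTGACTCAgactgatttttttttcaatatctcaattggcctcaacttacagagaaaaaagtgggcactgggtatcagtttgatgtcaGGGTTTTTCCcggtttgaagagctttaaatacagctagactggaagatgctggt
Il6: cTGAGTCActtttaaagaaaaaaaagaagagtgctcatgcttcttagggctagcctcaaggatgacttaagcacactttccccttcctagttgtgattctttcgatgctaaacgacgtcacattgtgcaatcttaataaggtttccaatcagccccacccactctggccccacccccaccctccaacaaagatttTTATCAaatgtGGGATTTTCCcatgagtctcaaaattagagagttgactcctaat
Pdzk1ip1: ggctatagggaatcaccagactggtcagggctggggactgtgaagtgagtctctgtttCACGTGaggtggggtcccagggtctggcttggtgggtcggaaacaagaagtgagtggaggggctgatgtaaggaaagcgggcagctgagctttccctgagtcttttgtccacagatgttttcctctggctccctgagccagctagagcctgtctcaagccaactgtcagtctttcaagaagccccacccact

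The Il9 and Il6 windows each held an AP-1 and a kappaB match. The AP-1 matches began 140 and 249 bases and the kappaB matches 54 and 44 bases before the start. The Il5 and Il13 windows held a GATA match alone of the motifs searched, 72 and 81 bases before the start, and Il6 held one as well. The Pdzk1ip1 window held an E-box match. Of 27025 promoters in the table, 6.87% held an AP-1, 4.6% a kappaB, 27.1% a GATA and 6.05% an E-box match in the same window. These matches describe letters and not binding.

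Il5 itself (ENSMUSG00000036117, chr11:53720794-53725106, GRCm38, plus strand) was the check of the labels, since the cells had been picked by its protein and not by its mRNA. In the 11 activated cells Il5 ranged from 63.9 to 11295 CPM, with a median of 1332. In the 10 silent cells it ranged from 0 to 6576 CPM, with a median of 63.6. The groups overlapped, and 10 activated against 4 silent cells held at least 100 CPM. An activated cell held more Il5 than a silent cell in 88.2% of the 110 cell pairs and in 89.1% of the 55 pairs of cells of the same date.

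Over summed reads Il5 stood at 2929 CPM in activated cells (95% exact Poisson interval 2874 to 2984) and 482 CPM in silent cells (458 to 507), 6.08-fold higher, a log2 ratio of 2.60 (95% exact interval of the read split 2.53 to 2.68). Silent replicate 6 supplied 78.1% of the silent reads and activated replicate 7 43.2% of the activated reads. Without that silent cell the log2 ratio was 4.71, without that activated cell it was 1.96, and without silent replicate 6 and activated replicate 11 it was 4.84. It was 4.36 in the cells of the first date and 1.81 in those of the second. The mean of the cells' own CPM gave 1.80. The 5 cells recovered before the stimulus held no Il5 read, where 3 reads would be 2.47 CPM.

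**Figure D1:**
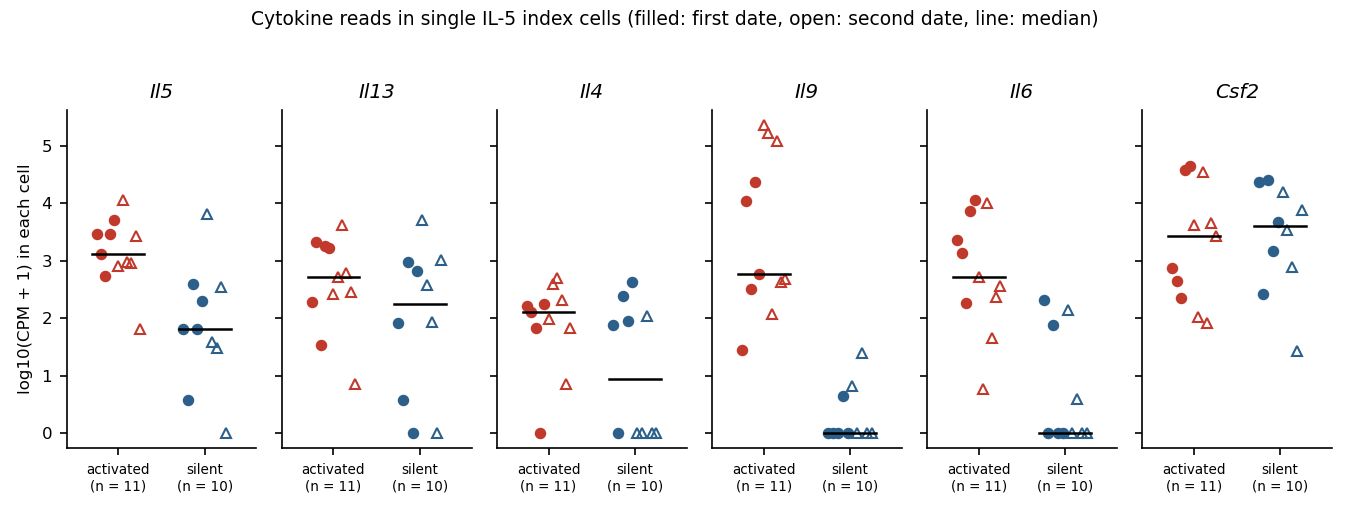
Each point is 1 cell and its height is log10(CPM + 1) of the gene named above the panel, for 11 activated (red) and 10 silent (blue) cells, with filled circles for the first and open triangles for the second title date and a line at the median. Il9 separates the states without overlap but by a narrow gap (27.4 against 23.9 CPM), Il6 and Il5 with some overlapping cells, and the Csf2 values cover the same range in both.

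Il9 (ENSMUSG00000021538, chr13:56479277-56482246, minus strand), a growth factor of mast cells and ILC2, was the gene that parted the states furthest. It had reads in all 11 activated cells, from 27.4 to 229067 CPM with a median of 580, and in 3 silent cells, from 0 to 23.9 CPM with a median of 0. No silent cell reached the lowest activated cell, but the gap was narrow, 23.9 CPM in silent replicate 9 against 27.4 CPM, both from few reads. Of the 2563 genes compared below, Il9 alone showed this separation upward (0.039%), and no gene (0%) showed it downward. The activated cells were spread widely: 5 of them, replicates 2, 4, 6, 7 and 9, held more than 1000 CPM, the lowest of these 11046 CPM, and the highest of the others held 580 CPM.

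Over summed reads Il9 took 60451 CPM in activated cells, 6.05% of their reads, against 3.26 CPM from 10 reads in silent cells, a log2 ratio of 14.18 (95% interval 13.30 to 15.24). The ratio was 11.73 on the first and 13.98 on the second date, 13.45 without activated replicate 6 and 15.75 without silent replicate 9. On the first and the second date the lowest activated cell stood at 0.118% and 0.0513% of the highest cell that shared its title number. Whether reads passing between libraries of a pool had a part in the low values was not tested. The cells recovered before the stimulus had no Il9 read.

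Il6 (ENSMUSG00000025746, chr5:30013114-30019981, plus strand), an inflammatory cytokine, had reads in 11 activated cells, from 4.78 to 11368 CPM with a median of 518. In silent cells it had reads in 4, from 0 to 203 CPM with a median of 0. An activated cell was higher in 93.6% of pairs. Summed, Il6 stood at 3080 against 36.6 CPM, 84.3-fold higher, with a log2 ratio of 6.40 (6.13 to 6.68) that was 6.53 and 6.60 within the dates 7.55 without silent replicate 1 and 6.06 without activated replicate 8, the cell with Adgre1 and Fcer1a reads. The activated cells with most Il6 were not those with most Il9. Replicates 5 and 8 held 11368 and 10026 CPM of Il6 and 580 and 118 CPM of Il9, and replicate 7 held 4.78 CPM of Il6 and 171144 CPM of Il9.

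Penk, which encodes the opioid precursor proenkephalin, had no read in silent cells and reads in 5 activated cells. Replicates 2 and 11 held 2878 and 1981 CPM and the other 3 less than 10 CPM. The sum of 348 CPM was 356-fold higher than the floor of 3 reads over the silent cells, and the log2 ratio against that floor was 7.58 without replicate 2.

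Il13, another signature cytokine of ILC2, differed less. It ranged from 6.09 to 4186 CPM in activated and from 0 to 5162 CPM in silent cells, with medians of 528 and 232, and activated cells were higher in 62.7% of pairs. Its log2 ratio of 0.66 (0.58 to 0.74) was 1.79 on the first date, -0.10 on the second and 1.5 without silent replicate 6. Il4, a type 2 cytokine that ILC2 make sparingly, ranged from 0 to 502 CPM in activated and from 0 to 429 CPM in silent cells. Its log2 ratio of 0.75 (0.56 to 0.96) was -0.60 on the first and 3.09 on the second date, and it stood at 133 CPM before the stimulus.

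Csf2, which encodes the myeloid growth factor GM-CSF, was abundant in both states. It ranged from 80.2 to 44584 CPM in activated and from 25.8 to 25975 CPM in silent cells, and the medians of 2696 and 4077 CPM ran against the summed levels of 12102 and 7827 CPM. The log2 ratio was 0.63 (0.61 to 0.65), activated cells were higher in 46.4% of pairs, and 6 activated and 7 silent cells held at least 1000 CPM. Before the stimulus Csf2 stood at 28.0 CPM. Tnf, an inflammatory cytokine, was lower in activated cells, with reads in 2 activated and 5 silent cells, 13.1 against 91.1 CPM and a log2 ratio of -2.79 that was -3.07 and -2.47 within the dates and -1.80 without silent replicate 2.

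Of 17 chemokine genes 3 were measured at 50 CPM. Ccl1, a T cell attractant, had reads in 11 activated and 8 silent cells at 2201 and 1284 CPM. Cxcl2, a neutrophil attractant, gave a log2 ratio of 1.52 that rested on single cells, being -3.25 without activated replicate 5, which held 4733 CPM, and 4.96 without silent replicate 1. Cxcl3, its relative, gave 0.17.

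Across all genes, 2563 reached 50 CPM on average over the states, and these held 90.9% of activated and 89.7% of silent reads. Their median log2 ratio was -0.07. Over summed reads 330 genes (12.9%) were at least 2-fold higher and 448 (17.5%) at least 2-fold lower in activated cells. With TMM scaling, which raised every log2 ratio by 0.12, these counts were 409 and 371. A gene is called higher or lower below where it also kept its direction in the cells of each date and on leaving out any 1 cell, which held for 287 genes higher (11.2%) and 333 lower (13%). Of these 620 genes 411 had a fold that moved by more than 1.5 times on leaving out a single cell. An activated cell exceeded a silent one in at least 90% of pairs for 12 genes (0.468%) and in at most 10% for 2 genes (0.078%). With a minimum of 200 CPM, 60 genes were 2-fold higher and 50 lower. Of the 8 genes measured in the list of cytokines and other secreted signals, Il5, Il9, Il6 and Penk were called higher and Tnf lower, and of the 3 chemokines none was called. Among these, Il5 encodes the cytokine whose secretion defined the states, and Penk, an opioid precursor, passed 1000 CPM in 2 activated cells alone. The median log2 ratio of the 8 genes, 1.68, ranged from 1.38 to 3.11 on leaving out any 1 cell, and was 3.24 without silent replicate 6 and activated replicate 11.

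**Figure D2:**
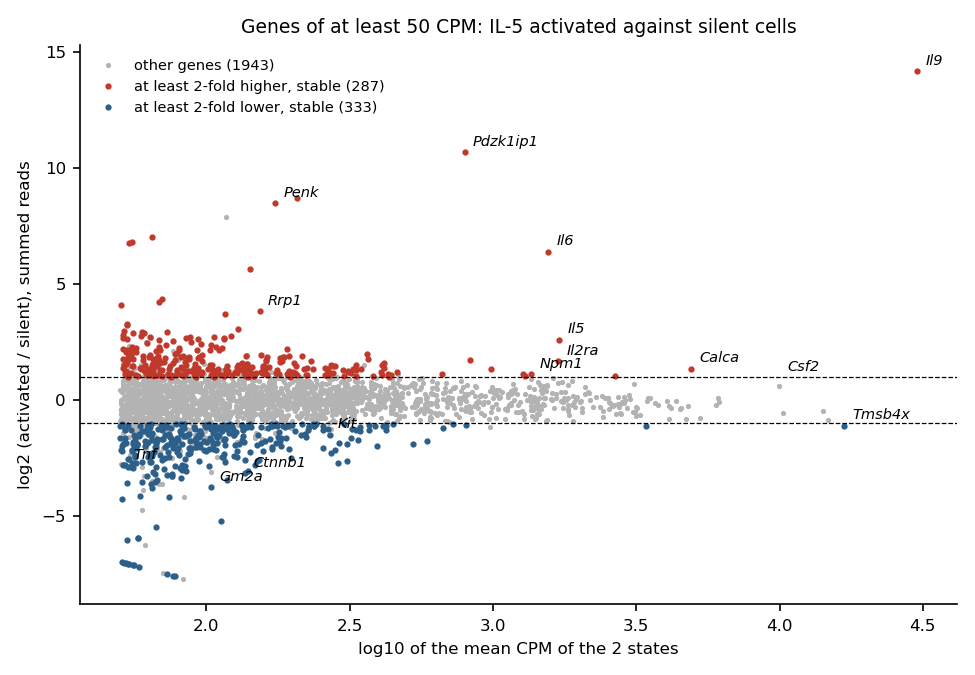
Each of the 2563 points is a gene, with log10 of its mean CPM over both states across and log2 of activated over silent summed reads upward, and dashed lines mark 2-fold. Genes called higher (287, red) and lower (333, blue) lie mostly at low levels, while Il9, Pdzk1ip1, Il6 and Il5 stand out upward and Tmsb4x is the called gene furthest to the right among the lower ones.

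More genes were detected in activated cells at the median. After thinning each cell to 100000 reads, 2307 to 3495 genes had a read in activated cells, with a median of 3023, and 1876 to 3528 in silent cells, with a median of 2622.5. The ranges overlapped widely. The difference of medians, 400.5 genes, lay between 221 and 580 on leaving out any 1 cell, and the medians were 3193 and 2443 on the first date and 2971.5 and 2802 on the second.

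The dates resembled each other weakly across all genes. The log2 ratios of the first and second date had a Pearson r of 0.10 across the 2551 genes with a ratio on both, as a description, since genes are not replicates and each date compares 5 or 6 cells a state. Of 522 genes at least 2-fold higher on the first date 56.9% lay above 0 on the second, against 49.2% of all genes, and of 521 lower genes 59.9% lay below 0, against 50.6%. On both dates 147 genes were 2-fold higher and 182 were 2-fold lower, while 112 of the 522 were 2-fold lower on the second date.

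**Figure D3:**
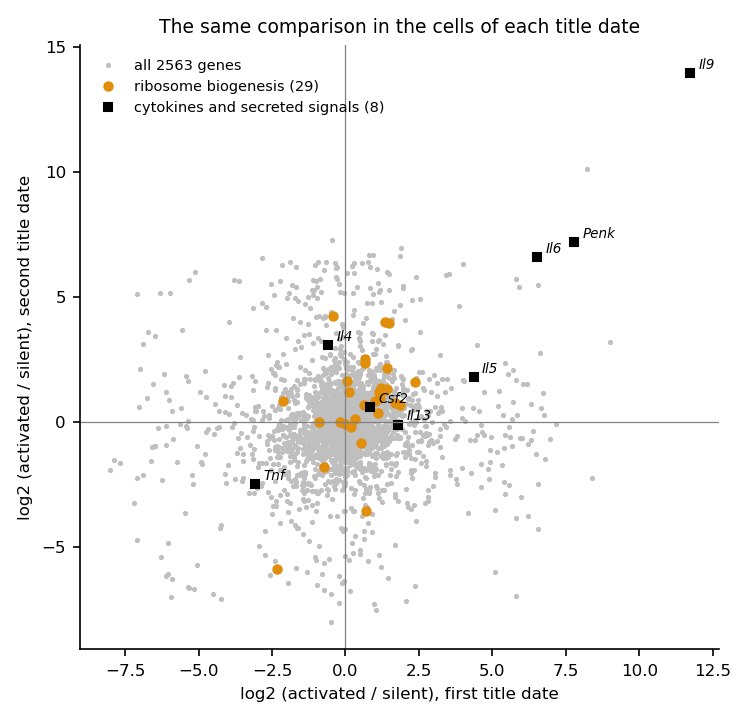
Each point is a gene, with its log2 ratio of activated to silent cells on the first title date across and on the second upward. Grey points scatter around 0 (r of 0.10), Il9, Penk, Il6 and Il5 (black squares) lie above 0 on both axes, Tnf below 0 on both, and most of the 29 ribosome biogenesis genes (orange) lie above 0 on both.

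The 12 genes with the largest log2 ratios upward, among those read in at least 70% of activated cells and higher on each date and without any 1 cell, were Il9, Il6 and 10 others. Pdzk1ip1 (ENSMUSG00000028716, chr4:115088708-115093899, plus strand) encodes a small membrane protein also called MAP17. It had reads in 9 activated cells, up to 5676 CPM with a median of 551, and none in silent cells or before the stimulus. Its summed level of 1592 CPM was at least 1626-fold higher than the silent floor. Replicates 6 and 7, with the highest Il9, also held its highest levels, 3811 and 5676 CPM.

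The other leading genes upward were low in level, and some had reads before the stimulus, Itpa at 89.9, Eml4 at 108, Idh3a at 87.4 and Trim27 at 50.3 CPM. Itpa, which removes inosine triphosphate from the nucleotide pool, and Mpp6, a membrane scaffold, stood at 129 and 107 CPM with no silent read, 132-fold and 109.7-fold above the silent floor of 3 reads. Slc25a33, a mitochondrial pyrimidine nucleotide carrier, had 328 activated reads against 1, a log2 ratio of 6.49 with the silent state set to the floor of 3 reads, by which the genes were ranked, and of 8.07 from the reads themselves (95% interval 5.58 to 13.4). Ubxn2a, a cofactor of the p97 ATPase, Trim27, a ubiquitin ligase, and Mvd, an enzyme of the mevalonate pathway, had no silent read and stood at 78.8, 60.8 and 54.1 CPM. Cops5, the catalytic subunit of the COP9 signalosome, had reads in 10 activated cells and no silent cell, at 71.8 CPM, and stood higher before the stimulus, at 323 CPM. Idh3a, a subunit of mitochondrial isocitrate dehydrogenase, had reads in 10 activated and 3 silent cells at 82.3 against 1.31 CPM. Eml4, a microtubule protein, had 248 activated reads against 3 (log2 6.08, 95% interval 4.52 to 8.37).

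**Figure D4:**
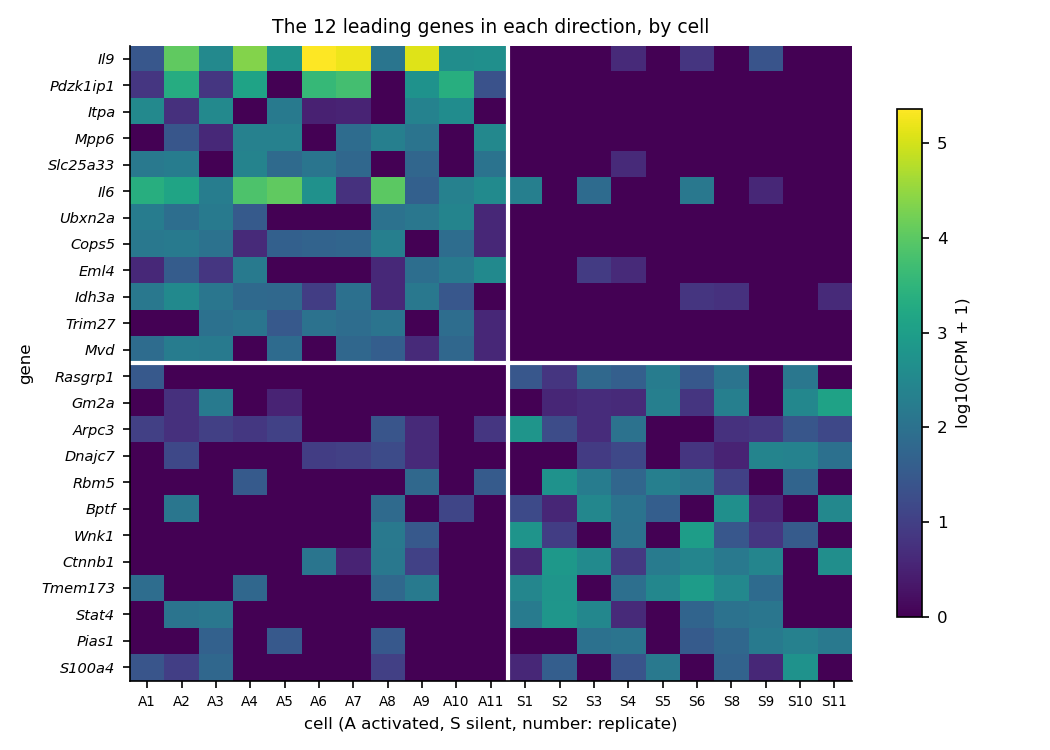
Rows are the 12 leading genes upward and the 12 downward, columns the 11 activated (A) and 10 silent (S) cells with their replicate number, and colour gives log10(CPM + 1). The upper left and lower right blocks are filled unevenly from cell to cell, Il9 is brightest, and the upper right block holds reads for Il9, Il6, Slc25a33, Eml4 and Idh3a alone.

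The 12 leading genes downward were each read in 7 to 9 silent and 1 to 8 activated cells. Rasgrp1, an activator of Ras, had reads in 1 activated and 8 silent cells at 2.68 against 60.7 CPM, a log2 ratio of -4.50 (-5.59 to -3.59). Ctnnb1, which encodes beta-catenin, ranged from 0 to 139.7 CPM in activated and from 0 to 725 CPM in silent cells, with medians of 0 and 218, a log2 ratio of -3.13 and activated cells higher in 12.3% of pairs. Its ratio was -7.11 and -2.22 on the dates. Tmem173, the DNA sensing adaptor STING, had reads in 4 activated and 7 silent cells at 30.0 against 249.7 CPM, and its log2 ratio of -3.06 was -3.27 and -2.82 on the dates. Single cells set part of these ratios, and that of Rasgrp1 reached -6.11 on leaving out 1 cell. Gm2a, a lysosomal lipid carrier, gave -3.73, with -0.50 and -7.98 on the dates, and -2.54 without silent replicate 11 at 1201 CPM. Arpc3, an actin nucleation subunit, gave -3.72, and -1.57 without silent replicate 1 at 626 CPM. The remaining genes, Dnajc7, Rbm5, Bptf, Wnk1, Stat4, Pias1 and S100a4, lay between -3.67 and -3.02. On leaving out 1 cell the smallest ratio in size among them was -1.94, for S100a4. Of the 24 leading genes 12 were below 50 CPM over both states and so outside the 2563 genes, and 6 share exon positions with another gene.

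Ribosome biogenesis, the nucleolar assembly of ribosomal subunits, was shifted upward. This list, like the other gene lists, was chosen with earlier results of these data known. Counts in these lists are therefore no independent evidence of a direction. Of its 29 measured genes 13 were called higher (44.8%, against 11.2% of all genes) and 2 lower (against 13%), 21 lay above 0, and the median log2 ratio was 0.91 against -0.07 for all genes. The median was 0.68 on the first and 0.84 on the second date, and ranged from 0.79 to 1.00 on leaving out any 1 cell. The summed level of the list was 8670 to 16742 CPM in activated cells, with a median of 12453, and 2478 to 13034 CPM in silent cells, with a median of 7619. The groups overlapped, with the silent median below the lowest activated cell.

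Nop56, a core protein of the particles that methylate ribosomal RNA, ranged from 253 to 1445 CPM in activated cells (median 423) and from 0 to 462 CPM in silent cells (median 114). Its log2 ratio was 1.97 (1.82 to 2.12), with 2.35 and 1.59 on the dates, and activated cells were higher in 94.5% of pairs. Nop56 shares exon positions with small nucleolar RNA genes and with Idh3b. Npm1, the nucleolar chaperone nucleophosmin, ranged from 1039 to 2829 CPM in activated and from 34.2 to 1524 CPM in silent cells, with a log2 ratio of 1.13 (1.06 to 1.19) that was 1.13 and 1.22 on the dates. Noc2l, Nop16, Nolc1 and Nop58, all nucleolar factors, had log2 ratios of 1.87, 1.70, 1.41 and 1.35.

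Some members went the other way or rested on few cells. Rrp12, an export factor of the small subunit, was called lower at -3.25, with reads in 1 activated and 4 silent cells, and Polr1c, a subunit of RNA polymerases I and III, at -1.31. Rrp1b, below 50 CPM over both states, gave 2.29 over all cells and -0.48 on the second date. Rrp1, a nucleolar protein outside the list that was chosen after its values were seen, ranged from 31.8 to 747 CPM in activated cells and had reads in 2 silent cells, at 86.4 and 92.4 CPM, with a log2 ratio of 3.82 and activated cells higher in 96.4% of pairs. Myc, a transcription factor known to drive ribosome biogenesis genes, had reads in 11 activated and 4 silent cells, stood at 326 against 124 CPM and was called higher at 1.40, with 2.56 and 0.23 on the dates. None of the 25 measured biogenesis genes with a promoter entry held the E-box CACGTG in the 250 upstream bases, against 9.91% of compared genes with an entry. The search covered these bases of few genes alone, and a part of Myc in their levels was not tested.

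Of the 80 measured genes of the cytosolic ribosomal proteins themselves 1 was called higher (1.25%, against 11.2% of all genes) and 0 lower (against 13%), and the median log2 ratio was -0.19, against -0.07 for all genes. Ribosomal protein genes are abundantly read, and of the 346 genes with a mean of at least 500 CPM 3.76% were called higher and 2.02% lower. The gene called was Rps27l, a p53-responsive relative of Rps27, at 3585 against 1768 CPM, with activated cells higher in 85.5% of pairs.

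Genes of the endoplasmic reticulum, where secreted proteins are made and folded, were higher in part. Of 45 measured genes 9 were called higher (20%, against 11.2% of all genes) and 0 lower (against 13%), with a median log2 ratio of 0.31 that was 0.31 and 0.45 on the dates. Ssr4, a subunit of the translocon-associated complex, ranged from 433 to 3052 CPM in activated and from 0 to 1040 CPM in silent cells, with a log2 ratio of 1.72 and activated cells higher in 91.8% of pairs. Creld2, Sdf2l1, Dnajb11, Pdia3 and Calr, which are chaperones or folding factors of this compartment, gave 1.92, 1.61, 1.23, 1.19 and 1.03, and Srpr, a subunit of the signal recognition particle receptor, gave 1.22. Sec11c, a signal peptidase subunit, stood at 1760 against 795 CPM. Derl2, a factor of protein export for degradation, had reads in 8 activated and 3 silent cells and a log2 ratio of 2.41, with 1.64 without activated replicate 7 and 6.46 without silent replicate 1.

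Sensors of the unfolded protein response lay below 50 CPM over both states. Ern1 (IRE1) and Atf6 had log2 ratios of 2.39 and 2.55 with reads in 4 and 3 activated cells, and the Atf6 ratio was -3.60 on the first date. Ddit3, the stress factor CHOP, had no activated read and reads in 4 silent cells at 68.9 CPM summed, 85.7-fold above the activated floor of 3 reads, and stood at 264 CPM before the stimulus.

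Golgi transport and exocytosis genes went both ways. Of 33 measured genes 6 were called higher (18.2%, against 11.2% of all genes) and 9 lower (27.3%, against 13%), around a median of -0.13 that ranged from -0.29 to 0.19 on leaving out any 1 cell. Upward lay Surf4, a cargo receptor for export from the endoplasmic reticulum, at 289.7 against 81.0 CPM (log2 1.84, 92.7% of pairs), and Rab8a, Lman1, Sec13, Tmed7 and Tmed2 at 1.78, 1.34, 1.25, 1.09 and 1.02. Downward lay the SNAREs, which fuse vesicles with their target, Ykt6, Bet1, Stx5a, Gosr1, Sec22b and Vamp8 at -2.22, -2.08, -1.90, -1.55, -1.13 and -1.09, the coatomer subunits Copg1 and Arcn1 at -2.04 and -1.64, and Mcfd2, a cargo receptor partner of Lman1, at -1.08. The Ykt6 ratio was -1.11 without silent replicate 2, which held 59.0% of the silent reads. Sec23a, a coat protein of export vesicles below 50 CPM over both states, gave 2.38, and -2.58 without activated replicate 5.

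Chaperones and the proteasome held no larger share of genes called higher than all genes did. Of 34 proteasome genes 3 were called higher (8.82%, against 11.2%), Psmc2, Psmd6 and Psma5 at 1.53, 1.34 and 1.07, and 0 lower (against 13%), with a median of 0.24. In a list of 21 cytosolic and mitochondrial chaperones that was written after values were seen, the median was 0.53, and 2 genes were called higher (9.52%) and 0 lower (against 13%). These were Hspd1, the mitochondrial chaperonin, at 566 against 167 CPM (log2 1.76, 91.8% of pairs), and Cct8, a subunit of the cytosolic chaperonin, at 624 against 209 CPM (log2 1.58, 88.2% of pairs). Hspd1 and Cct8 share exon positions with Hspe1 and Usp16 on the other strand, and the strand setting of the counting is not given in the sources used here.

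In energy metabolism the share of oxidative phosphorylation genes called higher was near that of all genes. Of 76 nuclear oxidative phosphorylation genes 7 were called higher (9.21%, against 11.2% of all genes) and 0 lower (against 13%), and the median of -0.04 turned to 0.08 with TMM scaling. Uqcrfs1, Uqcrc2, Ndufb3 and Ndufab1, subunits of complexes III and I, gave the largest ratios, 1.74, 1.19, 1.13 and 1.11. Atp5j2, a subunit of ATP synthase chosen after its values were seen, was higher in activated cells in 9.09% of pairs, at 1110 against 1982 CPM. Of 10 glycolysis genes and 6 mitochondrially encoded genes none was called, and their medians of 0.08 and 0.12 over all cells changed sign between the dates. The glycolysis median was -0.23 on the first and 0.82 on the second date, and the mitochondrial median 0.55 and -0.25. Aldoa gave -0.63 and Gapdh 0.36 over all cells, with -0.26 and 1.08 for Gapdh on the dates. In cholesterol and fatty acid synthesis Sqle was called higher at 1.15 and Ebp lower at -1.44, of 9 measured (11.1% each, near the 11.2% and 13% of all genes). In the cell cycle list Tyms, which makes thymidylate, was called higher at 1.46 and Tubb5, a tubulin, lower at -1.11, of 9 measured (11.1% each).

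**Figure D5:**
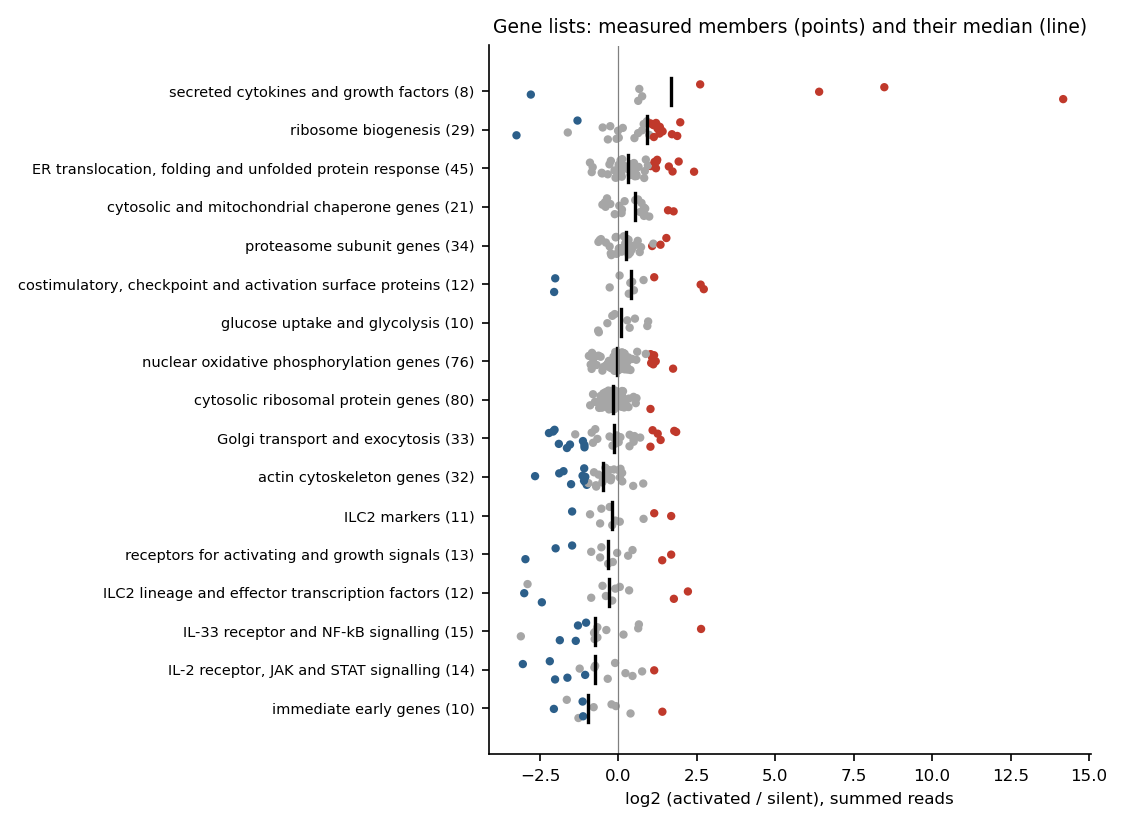
Each point is a measured gene placed by its log2 ratio of activated to silent summed reads, in rows of gene lists with the number of genes in brackets, red where called higher, blue where called lower, and a black line at the list's median. Cytokines and ribosome biogenesis have medians of 1.68 and 0.91, actin, NF-kB, STAT and immediate early genes medians of -0.51, -0.74, -0.76 and -0.96, and ribosomal proteins and oxidative phosphorylation lie close around 0.

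Among receptors, Il2ra, the high-affinity subunit of the IL-2 receptor, ranged from 773 to 5034 CPM in activated cells, with a median of 2633, and from 112 to 2772 CPM in silent cells, with a median of 605. The highest silent value was that of replicate 6, the silent cell with high Il5. The log2 ratio was 1.68 (1.62 to 1.74), with 1.46 and 1.97 on the dates, activated cells were higher in 88.2% of pairs, and the level before the stimulus was 213 CPM. Of 13 measured receptors 2 were called higher (15.4%, against 11.2% of all genes), Il2ra and Ptger4, a prostaglandin E2 receptor, at 1.39, and 3 lower (23.1%, against 13%), shares near those of all genes for so few members. The lower ones were Il18rap, a subunit of the IL-18 receptor, at -2.97, Tgfbr2, a TGF-beta receptor, at -2.0 and Kit, the stem cell factor receptor by which the cells had been sorted, at -1.48. Silent replicate 2 held 60.5% of the silent Tgfbr2 reads, and without it that ratio was -0.84. Kit had medians of 63.5 CPM in activated and 444 CPM in silent cells and stood at 279 CPM before the stimulus.

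Signalling genes downstream of both stimuli had medians below the -0.07 of all genes over all cells. Of 15 measured genes of the IL-33 receptor and NF-kB list 1 was called higher (6.67%, against 11.2% of all genes) and 4 lower (26.7%, against 13%), with a median of -0.74. Ikbkb, a kinase that frees NF-kB, was higher at 2.63, and 6.36 without silent replicate 5. Tnfaip3, an inhibitor of NF-kB, Birc3, a ubiquitin ligase, Sqstm1, a signalling scaffold, and Nfkbiz, a nuclear cofactor, were lower at -1.87, -1.36, -1.29 and -1.03. The Tnfaip3 ratio was -1.02 without silent replicate 6 and the Nfkbiz ratio -0.30 without silent replicate 11. Traf2 and Rela, below 50 CPM over both states, stood at 54.1 and 89.2 CPM in activated and 0 and 9.14 CPM in silent cells. Activated replicate 1 held 67.3% of the activated Rela reads, and the Rela log2 ratio of 3.29 was 1.81 without that cell and 0.85 on the second date. Ikbkg gave -3.11 over all cells and 1.65 on the second date.

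Of 14 genes of the IL-2 receptor, JAK and STAT list 1 was called higher (7.14%, against 11.2% of all genes), Jak2 at 1.14, and 5 lower (35.7%, against 13% of all genes), with a median of -0.76 that was -1.23 and -0.02 on the dates. On the second date the median over the genes compared was -0.03, level with that of the list. Leaving out any 1 cell gave list medians of -1.10 to -0.25. The lower genes were Stat4, Ptpn2, a phosphatase of JAK and STAT proteins, the survival genes Bcl2 and Mcl1, and Cish, a feedback inhibitor, at -3.05, -2.19, -2.02, -1.63 and -1.06. Silent replicate 6 held 3040 CPM of Bcl2, and without that cell the ratio was -0.63. The Mcl1 ratio was -0.28 without silent replicate 3. Socs2, another feedback inhibitor, below 50 CPM over both states, stood at 1.34 against 61.7 CPM.

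Among ILC2 transcription factors 2 of 12 were called higher (16.7%) and 2 lower (16.7%), shares near the 11.2% and 13% of all genes. Irf4, a factor of effector differentiation, had reads in 10 activated and 4 silent cells at 315 against 67.9 CPM, a log2 ratio of 2.21, and Nfil3, needed for ILC development, gave 1.77. Without silent replicate 5 these ratios were 3.67 and 2.68. Cnot6l, a deadenylase subunit that the list includes, and Ahr, the aryl hydrocarbon receptor, gave -3.00 and -2.44, and without silent replicate 6 -2.35 and -1.42. Ikzf2 gave -2.90 over all cells and 2.06 on the first date.

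Of 10 immediate early genes 1 was called higher (10%, near the 11.2% of all genes), Myc, and 3 lower (30.0%, against 13% of all genes), Ier5, Ier2 and Junb at -2.06, -1.14 and -1.13, with a median of -0.96 that ranged from -1.11 to -0.33 on leaving out any 1 cell. Without silent replicate 3 the Ier2 and Junb ratios were -0.64 and -0.46. Rrad gave -1.65 over all cells and 0.75 on the first date. Of 5 quiescence genes 1 was called lower (20%, near the 13% of all genes for so few members) and 0 higher (against 11.2%). It was Btg1, an antiproliferative factor, at 297 against 600.3 CPM. Its log2 ratio of -1.01 was -0.40 and -1.69 on the dates, and -0.62 at its nearest to no change on leaving out 1 cell. Surface proteins of activation were called higher for 3 of 12 measured genes (25.0%, against 11.2% of all genes) and lower for 2 (16.7%, near the 13% of all genes). Cd83, a marker of activated lymphocytes and dendritic cells, the integrin Itgal and the costimulator Icos gave 2.72, 2.62 and 1.14, and the integrin Itgb7 and Tnfsf14 (LIGHT) gave -2.05 and -2.02. The Cd83 ratio was 0.96 without activated replicate 8, the cell with both Adgre1 and Fcer1a reads, which held 1597 CPM of Cd83. The Icos ratio was 0.03 without activated replicate 6.

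Few of the most abundant genes were called. Of 346 genes with a mean of at least 500 CPM, 13 were called higher (3.76%, against 11.2% of all genes) and 7 lower (2.02%, against 13%), and the lower ones, chosen after values were seen, were Tmsb4x, Tmsb10, Brk1, Arhgdib, Sh3bgrl3, Atp6v0e and Ier3ip1. Tmsb4x, which binds actin monomers, ranged from 1855 to 18736 CPM in activated cells and from 7206 to 78254 CPM in silent cells, with medians of 12043 and 18352. Its summed level was 10713 against 22943 CPM, 2.14-fold lower, with log2 ratios of -1.28 and -1.04 on the dates, and it stood at 31841 CPM before the stimulus. Tmsb10, its relative, gave -1.89, and Brk1, a subunit of the WAVE complex, -1.75. Sh3bgrl3, a small thioredoxin-like protein, stood at 2158 against 4686 CPM, with activated cells higher in 13.6% of pairs.

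A list of 46 actin cytoskeleton genes was written after these values were seen, so its counts are no independent evidence of a direction. In it 10 of 32 measured genes were called lower (31.2%, against 13% of all genes) and 0 higher (against 11.2%), around a median of -0.51 that was -0.60 and -0.56 on the dates and -0.38 with TMM scaling. Arpc5, Arpc4 and Actr2, subunits of the Arp2/3 complex that nucleates branched actin, gave -1.15, -1.09 and -1.06, while its subunits Arpc2 and Arpc1b gave -0.25 and 0.12. Actb, at 1835 against 3000 CPM, gave -0.71. The summed level of the list ran from 13116 to 36490 CPM in activated and from 26320 to 105078 CPM in silent cells, so the groups overlapped.

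The abundant genes called higher, likewise chosen after values were seen, included Calca, which encodes the neuropeptide CGRP. Calca ranged from 13.4 to 29770 CPM in activated and from 7.40 to 14401 CPM in silent cells, with medians of 2131 and 1288. Its summed level was 7048 against 2746 CPM, a log2 ratio of 1.36, with activated cells higher in 62.7% of pairs and 78.4 CPM before the stimulus. Esd, an esterase, stood at 1421 against 554 CPM and Srgn, the granule proteoglycan serglycin, at 1739 against 846 CPM. By the pair share, activated cells also exceeded silent ones in at least 90% of pairs for Smn1, which assembles spliceosomal particles, at 129.7 against 6.85 CPM, for Tmem33, a membrane protein of the endoplasmic reticulum, at 212 against 31.3 CPM, and for Aasdhppt, a phosphopantetheinyl transferase, at 174 against 33.6 CPM.

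Among mast cell and basophil genes, Fcer1a, a subunit of their IgE receptor, had reads in activated replicates 6 and 8 alone, at 454 and 2093 CPM, while the other 10 genes of that list, Cpa3 among them, had none in any cell. Of the 5 activated cells with more than 1000 CPM of Il9, replicate 6 alone had an Fcer1a read. Nuclear non-coding RNAs summed to 1280 to 5499 CPM per activated cell and 900.2 to 13702 CPM per silent cell, with 3284 and 5054 CPM over summed reads, and their part in the other differences was not tested. Of the 3 measured, too few to set against the 11.2% of all genes called higher, Kcnq1ot1 was called higher at 2.30 and lies antisense to Kcnq1, so that their reads cannot be told apart without strand. Malat1 gave -0.66. Neat1 had no activated read and reads in 5 silent cells at 75.7 CPM, and stood at 773 CPM before the stimulus.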

How the data were processed

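The deposited files hold whole-number read counts per gene for each cell. The authors made 3' libraries with SMART-Seq v4, aligned the reads with TopHat to GRCm38 and counted them per gene with HTSeq; the submitters' processing notes name mm10 and GRCh38, and the strand setting and software versions are not given in the sources used here. The counts were not normalized.

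The files list 46078 gene IDs, of which 45229 matched a name and 849 did not (0.0415% of reads), and 5 summary rows were left out. Cells under 10000 gene reads were dropped. Reads were summed per state and scaled to CPM, and a state under 3 reads was set to 3 reads in ratios (for a silent state with 1 to 3 reads the ratio of the reads themselves is also given). Intervals are exact at 95% (Poisson for levels, Clopper-Pearson for the read split) and cover counting error only. Ties counted equally for both states in the share of cell pairs. Since each group is 1 sample, no test was run. Named genes were Il5, Il13, Il4, Il9, Il6 and Csf2, the 12 leading genes in each direction (at least 50 CPM in the higher state, read in 70% or more of its cells, one direction under every leave-out, date and mean of cells), and up to 4 members of each list past 2-fold, or the 2 most abundant where none was. Other called list members are given with their list, and genes chosen after their values were seen are said to be so. The members and lists were chosen with earlier results of these data known.

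Of 126 named genes 37 share exon positions with another gene, and 94 had an entry in the RefSeq promoter table. Alternatives were other scalings (edgeR 4.0.16 TMM and DESeq2 1.42.0 size factors, in R 4.3.3), other CPM minimums, thinned cells, each date alone and each cell left out. Values were computed in Python 3.11.15 with scipy 1.17.1 and pandas 2.3.3, figures were drawn with matplotlib 3.10.9, and the scripts were tested on simulated data.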

Additional observations from a re-analysis of the deposited data

Results flagged for a closer look

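In the 10 silent cells, 21 genes were examined for a cell far from all others by Dixon's criterion, and 10 genes had one. Chance meets the criterion in about 1 of 20 groups of normally spread values. Several of these genes were at or near 0 in most silent cells, so the number of such cells cannot be set against that rate. The reason was not tested for any of them.

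Silent replicate 6 held Il5 at 6576 CPM, with the next silent cell at 389 CPM, and Il13 at 5162 CPM, with the next at 1040 CPM. Silent replicate 9 held Il9 at 23.9 CPM, with the next at 5.70 CPM. Slc25a33 was read in silent replicate 4 alone, at 3.35 CPM, and Eml4 reached 7.40 CPM in silent replicate 3. Gm2a stood at 1201 CPM in silent replicate 11, against 301 CPM in the next cell, and Arpc3 at 626 CPM in silent replicate 1, against 104 CPM. In silent replicate 2 Rbm5 stood at 546 CPM and Stat4 at 638 CPM, with the next cells at 203 and 304 CPM. S100a4 stood at 528 CPM in silent replicate 10, against 148 CPM.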

How the results depend on the processing

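The Il5 log2 ratio of 2.60 kept its direction under every alternative run. It was 1.80 by the mean of the cells' own CPM, 2.73 with TMM, 2.69 without Il9 reads in the totals, 4.36 and 1.81 on the first and second date, 1.84 after thinning, and 4.84 without silent replicate 6 and activated replicate 11, an alternative chosen after seeing the data. Leaving out 1 cell gave 1.96 to 4.71. The median over genes of -0.07 was 0.065 with TMM, 0.0037 with DESeq2, 0.026 without Il9, -0.00024 and -0.17 on the dates, and -0.13 and 0.018 with minimums of 10 and 200 CPM, and it was -0.04 with no minimum. Genes 2-fold higher and lower numbered 1261 and 1699 at 10 CPM, 60 and 50 at 200 CPM, 2527 and 2780 with no minimum, and 67 and 136 at 4-fold with a read in more than 4 cells. The first date alone gave 526 higher and 570 lower and the second 457 and 690, over the genes past 50 CPM on that date and not the 2563 genes of both dates, of which 522 were higher on the first. Leaving out 1 cell gave 319 to 369 higher and 400 to 490 lower.

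Single named genes past 2-fold changed sign on the first date alone (Ikzf2 2.06, Rrad 0.75, Foxo1 0.16, Atf6 -3.60, Cyp51 -0.46, Thy1 -0.018, Wasf2 3.35, Psmd10 -0.18), on the second (Ikbkg 1.65, Tnfrsf4 -3.15, Rrp1b -0.48, Zap70 0.29), without the pair of cells that stood apart (Foxo1 0.20) and within the range without 1 cell (Cxcl2 -3.25 to 4.96, Rrad -3.95 to 0.29, Sesn1 -6.06 to 1.65, Foxo1 -2.42 to 0.079, Tnfrsf4 -4.04 to 3.28, Sec23a -2.58 to 4.47). Named genes under 2-fold that changed sign included Il4 (-0.60) and Gapdh (-0.26) on the first date and Il13 (-0.10) on the second. The cause was not tested. No paired analysis was possible because no result comes from a test and the replicate numbers only name cells. With 5 or 6 cells per state and date, a gene near 50 CPM can rest on 1 cell, and 1 read is worth 0.268 CPM in the activated and 0.326 CPM in the silent sum.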
